A study of Mus musculus with 12 samples.

Results

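The endoplasmic reticulum (ER) protein processing genes are the 159 of 21878 genes in the deposited table that its annotation column assigns to the KEGG pathway "protein processing in endoplasmic reticulum", leaving out *Nfe2l2* and *Bax*. Each gene was described across 4 groups of alveolar type 2 (AT2) cells, the surfactant-producing progenitor cells of the lung alveolus, with 3 samples per group. AT2-PBS and AT2-BLM cells came from Atg5 f/f mice, which carry the floxed allele without Cre, and Atg5-/- AT2-PBS and Atg5-/- AT2-BLM cells came from mice that also carried Nkx2.1-Cre, in which Cre acts across the lung epithelium and not in AT2 cells alone. The strain was C57BL/6, and the methods give males aged 8 to 12 weeks. BLM groups received bleomycin, a DNA-damaging drug that injures the lung, at 2 U/kg into the trachea, and PBS groups received saline. Cells were sorted at day 14 by the surface phenotype CD31-CD34-CD45-Sca-1-EpCAM+CD24-, and that day is not named for Atg5-/- AT2-PBS. Atg5 encodes a protein needed to elongate the autophagosome membrane, so the design asks what loss of autophagy and BLM injury, separately and together, do to AT2 transcripts.

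Secreted and membrane proteins enter the ER through the Sec61 channel, receive N-glycans from the oligosaccharyltransferase, and fold with the help of chaperones such as *Hspa5* (BiP) and the disulfide isomerases. Folded proteins leave in COPII vesicles, and misfolded ones are pulled back into the cytosol, ubiquitinated and degraded, a route called ER-associated degradation. When unfolded proteins build up, the sensors Ire1 (*Ern1*), Perk (*Eif2ak3*) and *Atf6* start the unfolded protein response (UPR). Perk phosphorylates the translation factor eIF2 alpha, which slows protein synthesis and favours *Atf4*, whose targets include *Ddit3* (Chop) and *Ppp1r15a* (Gadd34). Ire1 splices *Xbp1* mRNA, and *Xbp1* and *Atf6* raise chaperone transcription through the ER stress element (ERSE). AT2 cells depend on this machinery because they synthesize and secrete surfactant proteins, and misfolding of surfactant protein C is a known cause of familial lung fibrosis.

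The promoters of 6 of these genes are shown because they carry the element through which *Atf6* and *Xbp1* act and because their transcripts are among those the results below turn on. Each line gives the 250 bases before the transcription start (RefSeq, build GRCm38.p6, 5′ to 3′ on the strand of the gene), with ERSE or ERSE-II matches in capitals.
Hspa5, chr2:34771840-34772089, plus strand: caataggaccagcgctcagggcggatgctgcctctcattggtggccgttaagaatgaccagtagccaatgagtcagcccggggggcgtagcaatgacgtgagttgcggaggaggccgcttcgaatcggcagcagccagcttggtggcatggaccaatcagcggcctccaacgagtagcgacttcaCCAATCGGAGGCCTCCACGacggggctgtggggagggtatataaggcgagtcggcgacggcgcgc
Pdia6, chr12:17266339-17266588, plus strand: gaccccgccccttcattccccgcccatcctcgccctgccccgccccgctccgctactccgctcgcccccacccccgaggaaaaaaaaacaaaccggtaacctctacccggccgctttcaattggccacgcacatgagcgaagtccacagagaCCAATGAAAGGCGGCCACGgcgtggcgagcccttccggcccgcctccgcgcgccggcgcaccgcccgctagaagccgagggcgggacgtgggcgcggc
Hsp90b1, chr10:86705445-86705694, minus strand: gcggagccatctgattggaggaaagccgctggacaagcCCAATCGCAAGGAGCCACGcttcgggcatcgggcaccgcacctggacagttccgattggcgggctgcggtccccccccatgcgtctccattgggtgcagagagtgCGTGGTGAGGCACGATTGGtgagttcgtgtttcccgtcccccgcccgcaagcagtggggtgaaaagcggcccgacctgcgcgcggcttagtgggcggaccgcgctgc
Calr, chr8:84846932-84847181, minus strand: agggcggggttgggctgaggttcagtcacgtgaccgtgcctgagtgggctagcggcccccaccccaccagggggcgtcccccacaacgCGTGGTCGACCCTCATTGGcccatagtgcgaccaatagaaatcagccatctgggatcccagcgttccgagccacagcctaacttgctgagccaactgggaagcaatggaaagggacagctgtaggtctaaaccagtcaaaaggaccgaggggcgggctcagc
Derl3, chr10:75893148-75893397, plus strand: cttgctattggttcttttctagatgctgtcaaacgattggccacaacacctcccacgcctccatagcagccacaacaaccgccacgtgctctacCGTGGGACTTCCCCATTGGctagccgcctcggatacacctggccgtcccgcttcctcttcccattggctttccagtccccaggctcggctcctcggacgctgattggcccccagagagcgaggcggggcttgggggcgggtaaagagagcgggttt
Herpud1, chr8:94386179-94386428, plus strand: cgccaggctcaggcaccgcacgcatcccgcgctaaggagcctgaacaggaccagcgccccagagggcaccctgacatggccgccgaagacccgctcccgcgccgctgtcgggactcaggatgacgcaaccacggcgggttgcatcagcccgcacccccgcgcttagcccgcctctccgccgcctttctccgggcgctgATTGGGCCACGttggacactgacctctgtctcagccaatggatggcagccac
The ERSE was searched as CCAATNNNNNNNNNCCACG and the ERSE-II as ATTGGNCCACG, on both strands, in windows from 250 bases before to 50 bases after each start. The *Hspa5* element began 65 bases before the start and that of *Pdia6* 98 bases before it. *Hsp90b1* held 2 elements, and those of *Calr* and *Derl3* lay on the opposite strand. The ERSE was present in 39 of 32851 RefSeq promoters (0.119%). By gene it was found for 37 of 27025 genes (0.137%) and for 9 of the 133 pathway genes with a promoter in the table (6.77%), which were *Calr*, *Canx*, *Derl3*, *Dnajc3*, *Ero1lb*, *Hsp90b1*, *Hspa5*, *Pdia6* and *Syvn1*. ERSE-II matches were found in 12 promoters (0.0365%), among them *Herpud1* and *Dnajb11*. None of the 6 promoters held both elements. A match describes letters in the window and says nothing of binding.

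The files hold FPKM values without read totals, and their sums ranged from 390141 to 549169 per sample, with Pearson correlations of log2(FPKM + 1) between 0.938 and 0.987 within groups. AT2 markers other than *Sftpc* were high in every sample, while *Sftpc* itself was listed at 0 in 11 of 12 samples. Atg5 ranged from 6.01 to 12.5 FPKM in AT2-PBS, 6.72 to 10.1 in Atg5-/- AT2-PBS, 9.97 to 11.1 in AT2-BLM and 8.37 to 8.84 in Atg5-/- AT2-BLM. A whole-gene FPKM is no check of the deletion, because a transcript that lacks the deleted part is still counted. Pancreatic islet and exocrine transcripts (7 genes) summed to 3283, 3238 and 3251 FPKM in AT2-PBS 1, Atg5-/- AT2-PBS 1 and Atg5-/- AT2-PBS 2 and to between 4.06 and 172 in the other 9 samples. Immediate early genes, a list of 7 added after the data were seen, summed to 4813 FPKM in AT2-PBS 1 and 4447 in Atg5-/- AT2-PBS 2, against 843 to 2108 in the other 10. Y-linked transcripts, which male mice carry, were present in 5 of 12 libraries (AT2-PBS 2 and 3, AT2-BLM 3, Atg5-/- AT2-BLM 2 and 3), and the counts of calls below moved by less than 1.5 times with these transcripts as a covariate. Atg5-/- AT2-PBS also stood apart in markers of other cells. The leukocyte list (12 genes) summed to between 1705 and 2640 FPKM there and between 24.0 and 733 in the other groups, the fibroblast list (6 genes) to between 89.7 and 101 against 3.49 to 39.5, the airway list (5 genes) to between 22978 and 84299 against 822 to 11587, and the liver list (8 genes) to between 2085 and 3313 against 250 to 1191. No defining marker of the leukocyte list was at 0 in that group (*Ptprc*, 7.54 to 8.46 FPKM). In sorted bulk samples, fewer cells of a type and less RNA per cell cannot be told apart.

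Fold changes are differences of log2(FPKM + 1) between group means from limma, which understate the change of low genes. A gene was tested when at least 3 samples reached 1 FPKM (10675 genes, of which 143 belonged to the pathway), and was called when its unadjusted p was below 0.05 and its fold change at least 1.4, the criterion the study set. How many of these also had a Benjamini-Hochberg adjusted p below 0.05 over all 10675 genes is given beside each count. Of the 16 pathway genes not tested, 3 were at 0 in every sample and the others stayed low, such as *Casp12*, an ER-associated caspase, at 0 to 0.756 FPKM. With 3 samples per group, p-values measure the spread between these samples.

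In AT2-PBS, the mean level was at least 100 FPKM for 20 of the 159 genes, 10 to 100 for 68, 1 to 10 for 53 and under 1 for 18. The highest was the cytosolic chaperone *Hspa8* at 520 FPKM, followed by *Hspa5* at 399.8, the translocon subunit *Sec61b* at 331 and the disulfide isomerase *P4hb* at 300.2. Of the UPR effectors, *Xbp1* at 101 to 166 FPKM and *Atf4* at 76.3 to 131 were abundant without injury, as was *Ppp1r15a* at a mean of 82.1. The effectors *Eif2s1* and *Ddit3* were lower, at means of 10.2 and 4.38 FPKM. The sensors *Ern1* (1.72 to 2.44 FPKM), *Atf6* (2.47 to 4.67) and *Eif2ak3* (2.34 to 4.31) were low. Others on the list of sensors and their proteases were higher, such as *Mbtps1*, *Atf6b* and *Eif2ak1* at means of 21.0, 16.1 and 14.4 FPKM.

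With BLM, pathway genes moved in both directions in Atg5 f/f mice. Relative to AT2-PBS, 17 of the 143 genes rose and 15 fell in AT2-BLM, where 20.6% of all genes tested rose and 7.77% fell. Together 32 were called (28.4% of all genes were), of which 14 passed the adjustment (9 higher, 5 lower), against 17.4% of all genes. Cytosolic chaperones supplied 7 of the rises, led by *Cryab* (3 under each of 3 other scalings), while the falls joined the heat-inducible *Hspa1a*, the sensor *Eif2ak3*, the effectors *Atf4* and *Ppp1r15a* and the ERSE genes *Pdia6*, *Calr* and *Derl3*. The median log2 fold change was 0.02 for the 143 genes and 0.17 for all genes. The split depended on scaling. It was 6 higher and 28 lower after quantile normalization or median-ratio scaling, and 5 higher and 25 lower after scaling to *Cdh1*, which brought the median of all genes to −0.02, 0.01 and −0.02. Ranges were separate for 51 of the 143 genes, against 40.2% of all genes.

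**Figure D1:**
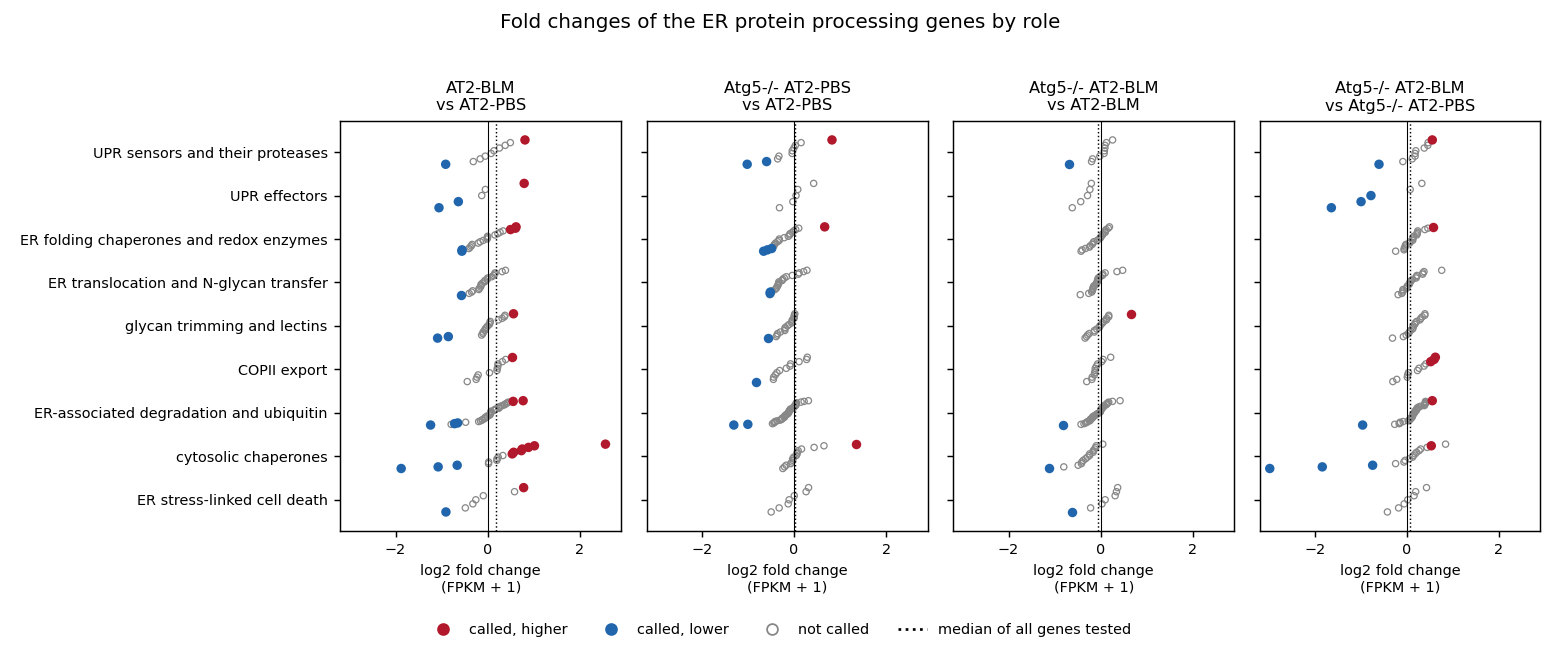
Log2 fold change on the FPKM + 1 scale (horizontal axis) of the tested genes of 9 role lists (rows) in 4 comparisons (panels); each point is 1 gene, filled red when called higher, filled blue when called lower and open when not called, and the dotted line is the median of all genes tested. The cytosolic chaperones reached furthest both ways in AT2-BLM vs AT2-PBS (from −1.88 for *Hspa1a* to 2.56 for *Cryab*), and few genes were called in Atg5-/- AT2-BLM vs AT2-BLM.

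*Cryab*, a small heat shock protein that holds unfolded proteins in solution (chr9:50560863-50564738, plus strand; gene positions are on NCBIM37, the mm9 assembly), had the largest rise. Its level, given here and below in the order of replicates 1, 2 and 3, was 57.1, 60.6 and 14.7 FPKM in AT2-PBS and 249.8, 199 and 229 in AT2-BLM. All 3 AT2-BLM samples lay above all 3 AT2-PBS samples, and the log2 fold change was 2.56 (SE 0.40, limma adjusted p = 0.00247). *Hsph1*, a nucleotide exchange factor of the Hsp70 family, rose by 1.02 on the log2 scale (SE 0.41, limma adjusted p = 0.104), a call lost under all 3 other scalings. *Hspbp1*, another exchange factor of Hsp70, measured 31.1, 32.1 and 30.2 FPKM in AT2-PBS and 54.0, 46.7 and 59.3 in AT2-BLM. These narrow, separate ranges gave a log2 fold change of 0.75 (SE 0.13, limma adjusted p = 0.00429). *Dnaja1*, *Dnaja2*, *Dnajc5* and *Hspa2* were the other cytosolic chaperones called higher. *Hspa8*, a constitutive member of the Hsp70 family, and *Hsp90aa1*, a cytosolic Hsp90, were not called (log2 fold change 0.20 and 0.33).

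*Hspa1a* and *Hspa1b*, the heat-inducible Hsp70 genes, went the other way. They are near-identical neighbours (chr17:35106144-35109069 and chr17:35093381-35096183, both on the minus strand), so reads may be split between them. *Hspa1a* measured 98.2, 17.8 and 50.8 FPKM in AT2-PBS and 13.7, 9.62 and 11.4 in AT2-BLM. The AT2-PBS values were spread over a wide range but all lay above the AT2-BLM values. The log2 fold change was −1.88 (SE 0.50, limma adjusted p = 0.0246), and the sum of both genes differed by −1.82 on the same scale. *Dnajb1*, the Hsp40 partner of inducible Hsp70, fell by 0.66 on the log2 scale (SE 0.27, limma adjusted p = 0.102). Both Hspa1 genes were highest in AT2-PBS 1, the sample with the highest immediate early gene sum. Between these groups 4 of those 7 genes were called lower, and their part in the *Hspa1a* result was not tested. Leaving out any library did not end the *Hspa1a* call. *Hspa1b* was not called without AT2-PBS 1, without AT2-PBS 3, without AT2-BLM 2 or with the compared groups alone.

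Among the sensors, only *Eif2ak3* and *Wfs1* were called of 10 tested (20.0%, against 28.4% of all genes). *Eif2ak3* (Perk, chr6:70794509-70855239, plus strand) measured 2.95, 2.34 and 4.31 FPKM in AT2-PBS and 0.851, 0.820 and 2.12 in AT2-BLM. The highest AT2-BLM sample was just below the lowest AT2-PBS sample, and the log2 fold change was −0.91 (SE 0.30, limma adjusted p = 0.0566). *Wfs1*, an ER membrane protein that restrains *Atf6* signalling, measured 5.46, 4.66 and 6.41 FPKM in AT2-PBS and 9.95, 8.45 and 13.2 in AT2-BLM. The ranges were separate, with a log2 fold change of 0.81 (SE 0.20, limma adjusted p = 0.0194). *Ern1* (0.08), *Atf6* (−0.05), *Atf6b* (0.38) and the other eIF2 kinases *Eif2ak1* (0.49), *Eif2ak2* (0.14) and *Eif2ak4* (−0.16) were not called, nor were the proteases that release *Atf6*, *Mbtps1* (−0.31) and *Mbtps2* (0.26).

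Of the 5 effectors, *Eif2s1* rose, *Ppp1r15a* and *Atf4* fell, and *Xbp1* and *Ddit3* were not called. *Eif2s1*, which encodes eIF2 alpha, the substrate of Perk, measured 9.76, 11.8 and 9.06 FPKM in AT2-PBS and 16.6, 17.8 and 20.9 in AT2-BLM. No AT2-BLM sample was as low as an AT2-PBS sample (log2 fold change 0.79, SE 0.16, limma adjusted p = 0.00718). *Ppp1r15a*, the phosphatase subunit that reverses eIF2 alpha phosphorylation, measured 121, 54.4 and 71.1 FPKM in AT2-PBS and 26.6, 42.0 and 44.5 in AT2-BLM. The groups did not overlap, and the log2 fold change was −1.06 (SE 0.35, limma adjusted p = 0.0558). *Atf4* measured 131, 76.3 and 91.6 FPKM in AT2-PBS and 51.7, 60.6 and 76.5 in AT2-BLM. The AT2-BLM maximum reached the AT2-PBS minimum, and the log2 fold change was −0.64 (SE 0.25, limma adjusted p = 0.101). The log2 fold change was −0.13 for *Ddit3*, which encodes the pro-apoptotic factor Chop, and −0.05 for *Xbp1*. FPKM per gene does not separate spliced from unspliced *Xbp1*. Without AT2-PBS 1, where immediate early genes, *Atf4* and *Ppp1r15a* were all highest in the group, neither *Atf4* (−0.42) nor *Ppp1r15a* (−0.74) was called. Both calls were also lost without AT2-BLM 1, and that of *Atf4* without AT2-BLM 2.

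Of 19 ER folding chaperones and redox enzymes 3 were called higher and 2 lower (26.3%, against 28.4% of all genes), with a median log2 fold change of −0.01. But after quantile normalization none was called higher and 6 lower, with a median of −0.25. With that scaling 1398 of all 10675 genes were called lower. *Pdia6*, a disulfide isomerase that also binds Ire1 and Perk, measured 247, 279 and 317 FPKM in AT2-PBS and 191, 224 and 159.6 in AT2-BLM. The ranges were separate (log2 fold change −0.56, SE 0.16, limma adjusted p = 0.0312). *Calr*, a calcium-binding lectin chaperone, fell by 0.56 on the log2 scale (SE 0.25, limma adjusted p = 0.140). Its call was lost in 14 of 22 other settings. Among these were leaving out AT2-PBS 3, which held 204 FPKM, AT2-PBS 2 or any AT2-BLM sample. *Dnajb11*, the Hsp40 co-chaperone of BiP, rose by 0.61 (SE 0.16, limma adjusted p = 0.0218), with *Erp29* and *Dnajc10* the other rises. The calls of *Dnajb11* and *Erp29* were lost under all 3 other scalings. *Hspa5* was lower in every AT2-BLM sample than in any AT2-PBS sample, but its log2 fold change of −0.38 was under the 1.4-fold limit. *Canx*, the membrane-bound lectin chaperone, was not called (log2 fold change −0.00), nor were *P4hb* (0.22), *Pdia3* (−0.10), *Pdia4* (−0.01) and *Hyou1* (0.27).

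In degradation, glycan trimming, export and cell death, calls were scattered. *Derl3*, a Derlin of the retrotranslocation channel, measured 2.31, 3.15 and 3.36 FPKM in AT2-PBS and 2.03, 0.180 and 0.275 in AT2-BLM. AT2-BLM 1 was close to the AT2-PBS range and the other 2 samples were near 0, with a log2 fold change of −1.24 (SE 0.30, limma adjusted p = 0.0171). *Derl3* is also abundant in plasma cells. Of their markers, *Jchain* was at 9.13 FPKM in AT2-BLM 1 but Mzb1 at 0.107, and both were at or below 0.126 in AT2-PBS, where *Derl3* was highest. Of the other listed markers, *Sdc1* was at 322 to 336 FPKM in AT2-PBS and 312 to 406 in AT2-BLM. *Prdm1* was at 0.158 to 0.436 and 0.0337 to 0.236. The part of plasma cells in the *Derl3* values was not tested. Its relatives *Derl1* (0.24) and *Derl2* (0.24), the ligase *Syvn1* (−0.06) and its adaptor *Sel1l* (−0.20) were not called. *Man1a*, a mannosidase that trims N-glycans, measured 7.38, 9.76 and 9.66 FPKM in AT2-PBS and 4.25, 3.35 and 3.39 in AT2-BLM. The groups were well apart (log2 fold change −1.09, SE 0.25, limma adjusted p = 0.0134). The lectins *Os9* (0.06) and *Edem1* (0.05) and the cargo receptor *Lman1* (0.23) were not called. Of the 12 COPII genes, *Sec23b*, part of the inner coat, rose by 0.53 on the log2 scale (SE 0.18, limma adjusted p = 0.0616), a call lost under all 3 other scalings. The calpain *Capn2* rose by 0.78 (SE 0.25, limma adjusted p = 0.0497), with AT2-BLM 3 at 75.8 FPKM and the other AT2-BLM samples at 35.5 and 40.7, and was not called without AT2-BLM 3.

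Of the genes named by rule, *Cryab*, *Derl3*, *Eif2ak3*, *Eif2s1*, *Hspa1a*, *Hspbp1*, *Man1a* and *Wfs1* were called in all 22 other settings, counted here and below without the stricter thresholds. The count of 32 fell to 21 without AT2-PBS 3.

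**Figure D2:**
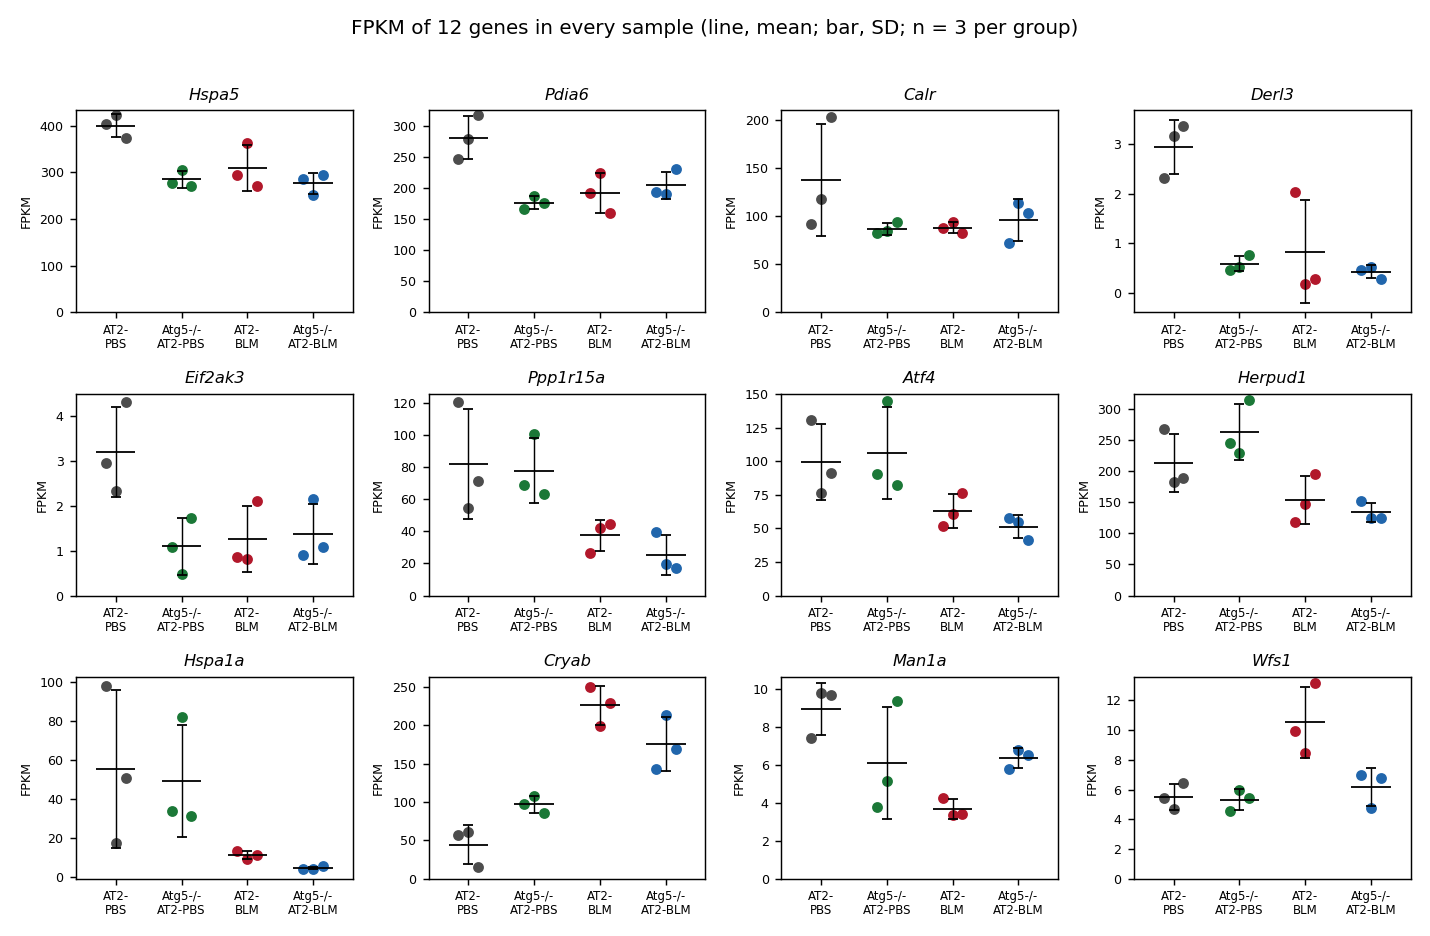
FPKM (vertical axes) of 12 pathway genes in each of the 12 samples, grouped by genotype and treatment (horizontal axes); points are samples, the line is the group mean and the bar the SD, n = 3. *Hspa5*, *Pdia6* and *Derl3* were highest in AT2-PBS, *Ppp1r15a* and *Hspa1a* were lower in both BLM groups, *Cryab* was highest in AT2-BLM (199 to 249.8 FPKM), and the *Derl3* bar of AT2-BLM extends below 0 because its SD exceeds its mean.

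Without injury, a small set of ER genes was lower in Atg5-/- cells. Relative to AT2-PBS, 3 of 143 genes rose and 11 fell in Atg5-/- AT2-PBS, where 14.1% of all genes rose and 5.16% fell. Together 14 were called (19.3% of all genes were). After adjustment 4 remained, *Hspa5*, *Pdia6*, *Rpn1* and *Derl3*, all lower, against 11.2% of all genes. The median log2 fold change was −0.13 for the pathway and 0.02 for all genes, and 104 of the 143 values were negative, but scaling to *Cdh1* turned the pathway median to 0.22 (all genes 0.35) and the split from 3 higher and 11 lower to 10 and 3. Quantile normalization gave 2 higher and 33 lower, with an all-gene median of −0.17. The ranges did not overlap for 32 genes, against 28.9% of all genes.

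Of 19 folding chaperones and redox enzymes tested, 16 had negative values and 10 had separate ranges, where 28.9% of all genes had separate ranges. Of these 19, 3 were called lower and 1 higher, a share of 21.1% called against 19.3% of all genes. Their median log2 fold change was −0.32, and it was 0.07 with scaling to *Cdh1*, which moved all genes by a similar amount. *Hspa5* (BiP, chr2:34627490-34632051, plus strand), the Hsp70 of the ER lumen, measured 404, 422 and 374 FPKM in AT2-PBS and 277, 305 and 272 in Atg5-/- AT2-PBS. The ranges were far apart for so modest a change (log2 fold change −0.49, SE 0.14, limma adjusted p = 0.0475), which was just past the 1.4-fold limit and lost its call in 6 of 22 settings. *Pdia6* measured 166, 187 and 176 FPKM in Atg5-/- AT2-PBS, below every AT2-PBS sample (log2 fold change −0.66, SE 0.16, limma adjusted p = 0.0140). Scaling to *Cdh1* was the setting that ended this call (−0.27). *Calr* fell by 0.58 on the log2 scale (SE 0.25, limma adjusted p = 0.195). Its call was lost in 11 of 22 settings, among them without AT2-PBS 3 or any Atg5-/- AT2-PBS sample. *P4hb* (−0.40), *Pdia4* (−0.43), *Pdia3* (−0.32) and *Hsp90b1* (−0.44), the Hsp90 of the ER, had separate ranges but did not reach 1.4-fold. Against this trend *Erp29*, a luminal protein of the disulfide isomerase family, measured 37.8, 35.0 and 48.2 FPKM in AT2-PBS and 58.3, 67.3 and 66.4 in Atg5-/- AT2-PBS. All 3 were above the AT2-PBS range (log2 fold change 0.66, SE 0.21, limma adjusted p = 0.0684).

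Translocation and glycan transfer genes had negative values in 16 of 20, separate ranges in 8 and calls in 2, both lower. Of all 10675 genes 5102 had negative values and 28.9% had separate ranges. Called were 19.3% of all genes, a larger share than of this list, and called lower were 5.16%, a smaller share. The median of the 20 genes was −0.33 and turned to 0.04 with scaling to *Cdh1*, where none was called. *Rpn1*, a subunit of the oligosaccharyltransferase, measured 68.1, 85.4 and 70.2 FPKM in AT2-PBS and 51.6, 51.9 and 50.6 in Atg5-/- AT2-PBS. The Atg5-/- samples were nearly equal and below every AT2-PBS sample (log2 fold change −0.52, SE 0.14, limma adjusted p = 0.0243). *Sec61a1*, the pore subunit of the translocon, fell by 0.52 on the log2 scale (SE 0.19, limma adjusted p = 0.115), while *Sec61b* was not called (0.09). *Sec24d*, a cargo-binding subunit of the COPII coat, measured 12.4, 17.8 and 10.1 FPKM in AT2-PBS and 5.75, 5.68 and 9.82 in Atg5-/- AT2-PBS. Its ranges barely separated (log2 fold change −0.84, SE 0.27, limma adjusted p = 0.0744).

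Among sensors *Eif2ak3* measured 1.09, 0.473 and 1.73 FPKM in Atg5-/- AT2-PBS, below every AT2-PBS sample (log2 fold change −1.02, SE 0.30, limma adjusted p = 0.0501). *Mbtps1*, the site-1 protease that begins *Atf6* cleavage, fell by 0.60 (SE 0.22, limma adjusted p = 0.117). *Eif2ak2* (Pkr), the eIF2 kinase that senses double-stranded RNA, measured 1.44, 1.36 and 0.975 FPKM in AT2-PBS against 4.18, 4.14 and 1.37 in Atg5-/- AT2-PBS. Its rise of 0.82 (SE 0.28, limma adjusted p = 0.0870) rested on the 2 Atg5-/- AT2-PBS libraries with islet transcripts and the 1 sample of the group without them gave 0.13, which was not called. No effector was called, with log2 fold changes of 0.08 for *Atf4*, 0.42 for *Ddit3*, −0.03 for *Ppp1r15a*, 0.04 for *Eif2s1* and −0.32 for *Xbp1*.

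*Derl3* measured 0.464, 0.527 and 0.757 FPKM in Atg5-/- AT2-PBS, all under the lowest AT2-PBS sample (log2 fold change −1.31, SE 0.30, limma adjusted p = 0.0115). *Herpud1*, an ERSE-II gene whose product assembles the degradation complex, was not called (0.31). *Cryab* measured 97.1, 108 and 85.8 FPKM in Atg5-/- AT2-PBS, above every AT2-PBS sample (log2 fold change 1.35, SE 0.40, limma adjusted p = 0.0526). *Cryab* was the only one of 16 tested cytosolic chaperones called, and *Hspa1a* had a log2 fold change of −0.01.

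Beside these results stand the markers of other cells in Atg5-/- AT2-PBS, where 11 of 11 tested leukocyte, 5 of 5 fibroblast, 3 of 4 airway and 7 of 8 liver genes were called higher than in AT2-PBS. Their part in the lower ER transcripts was not tested. Leaving out the 3 libraries with islet transcripts leaves 1 Atg5-/- AT2-PBS sample, assumed to vary like the other groups. In that fit 9 genes were called in place of 14, and *Hspa5*, *Sec24d*, *Erp29*, *Eif2ak3*, *Eif2ak2*, *Sec61a1*, *Mbtps1*, *Calr* and *Man1a* were not among them. The count was 23 without AT2-PBS 1, 9 without AT2-PBS 2, 8 without Atg5-/- AT2-PBS 2 and 22 without Atg5-/- AT2-PBS 3. Of the genes named by rule, *Cryab* and *Derl3* were called in all 22 settings.

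After BLM, few pathway genes were called between the genotypes. Atg5-/- AT2-BLM and AT2-BLM differed in 6 of 143 genes, 2 higher and 4 lower, where 5.16% of all genes were called, 2.04% higher and 3.12% lower. None of the 6 passed the adjustment, while 1 gene of all 10675 did (0.00937%). By limma 11 of the 143 had an unadjusted p below 0.05. The median log2 fold change was −0.09 for the pathway and −0.05 for all genes, and the ranges did not overlap for 15 genes, against 13.4% of all genes. The falls were *Hspa1a*, *Bag2* (a co-chaperone that inhibits the ligase *Stub1*), *Wfs1* and *Capn2*, and the rises were *Man1a* and a gene listed as 6-Mar, a symbol turned into a date that the table describes as a membrane-associated ring finger protein.

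*Wfs1* measured 7.0, 4.73 and 6.77 FPKM in Atg5-/- AT2-BLM, below every AT2-BLM sample (log2 fold change −0.68, SE 0.20, limma adjusted p = 0.607), and was called in all 22 other settings. *Hspa1a* measured 4.30, 4.45 and 5.60 FPKM, again without overlap with the 9.62 to 13.7 of AT2-BLM (log2 fold change −1.11, SE 0.50, limma adjusted p = 0.621). That call was lost in 14 of 22 settings. *Man1a* measured 5.78, 6.77 and 6.54 FPKM, above every AT2-BLM sample (log2 fold change 0.66, SE 0.25, limma adjusted p = 0.618). *Cryab* was lower without being called (−0.38), at 143, 214 and 169 FPKM. All 5 effectors had negative values, from −0.20 for *Xbp1* to −0.62 for *Ppp1r15a*, and 15 of 16 cytosolic chaperones did (10 with scaling to *Cdh1*), but the effectors had no call and the chaperones had *Hspa1a* alone. No gene among the 19 folding chaperones and redox enzymes, 20 translocation genes or 12 COPII genes was called. Counts moved to 10 without AT2-BLM 1, 3 without AT2-BLM 3, 2 without Atg5-/- AT2-BLM 2 and 11 without Atg5-/- AT2-BLM 3.

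In Atg5-/- cells, the Perk-branch effectors *Atf4* and *Ppp1r15a* and inducible Hsp70 fell with BLM. Relative to Atg5-/- AT2-PBS, 7 of 143 genes rose and 8 fell in Atg5-/- AT2-BLM, where 18.4% of all genes were called, 7.66% higher and 10.7% lower, and 7 passed the adjustment (2 higher, 5 lower), against 8.65% of all genes. Of the 143 values 105 were positive with a median of 0.13 (all genes 0.06), but the median was −0.30 with scaling to *Cdh1* (all genes −0.32). That scaling gave 0 higher and 19 lower, and median-ratio scaling 0 and 9. The ranges did not overlap for 36 genes, against 24.9% of all genes.

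*Hspa1a* measured 33.9, 82.3 and 31.5 FPKM in Atg5-/- AT2-PBS and 4.30, 4.45 and 5.60 in Atg5-/- AT2-BLM. The lowest sample without BLM was several times the highest with it, and the 7.91-fold fall was the largest in the pathway (log2 fold change −2.98, SE 0.50, limma adjusted p = 0.00296). The sum of *Hspa1a* and *Hspa1b* differed by −2.97. *Ppp1r15a* measured 69.0, 101 and 63.5 FPKM without and 39.6, 19.5 and 17.0 with BLM. The groups were separate (log2 fold change −1.65, SE 0.35, limma adjusted p = 0.0120). *Atf4* measured 90.5, 145 and 82.1 FPKM in Atg5-/- AT2-PBS and 57.9, 54.8 and 41.4 in Atg5-/- AT2-BLM. Every value with BLM was lower (log2 fold change −1.0, SE 0.25, limma adjusted p = 0.0284). *Ddit3* measured 5.20, 8.53 and 5.03 FPKM against 3.56, 3.64 and 2.29. Its ranges were also separate (log2 fold change −0.78, SE 0.24, limma adjusted p = 0.0645). *Xbp1* was not called (0.07).

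*Herpud1* (chr8:96910338-96919277, plus strand) measured 245, 229.6 and 315 FPKM in Atg5-/- AT2-PBS and 152, 125 and 124 in Atg5-/- AT2-BLM. This gap was among the clearest of the degradation genes (log2 fold change −0.97, SE 0.21, limma adjusted p = 0.0136), and the other ERSE-II gene, *Dnajb11*, had a log2 fold change of 0.45 without a call. The rises were *Sec23a*, *Sec23b* and *Sec24d* of the COPII coat, the sensor *Atf6b*, the chaperone *Hyou1*, *Hspbp1* and the ubiquitin shuttle *Ubqln1*. *Atf6b* measured 14.8, 15.5 and 16.4 FPKM against 21.4, 21.3 and 27.4. The ranges were separate (log2 fold change 0.55, SE 0.14, limma adjusted p = 0.0348). *Hspbp1* rose by 0.53 (SE 0.13, limma adjusted p = 0.0284). All 7 rises lost their call under median-ratio and *Cdh1* scaling.

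Beside this comparison, 11 of 11 tested leukocyte, 5 of 5 fibroblast and 4 of 4 airway genes were called lower in Atg5-/- AT2-BLM, as were 5 of 8 liver and 4 of 7 immediate early genes, and their part was not tested. *Hspa1a*, *Atf4*, *Ppp1r15a* and *Ddit3* were highest in Atg5-/- AT2-PBS 2, the sample of its group with the highest immediate early gene sum. Leaving that library out kept the calls of *Hspa1a*, *Hspa1b*, *Ppp1r15a*, *Atf4* and *Herpud1*, which were called in all 22 other settings. The count of 15 was 7 without the 3 libraries with islet transcripts, 9 without Atg5-/- AT2-PBS 2, 24 without Atg5-/- AT2-BLM 2 and 9 without Atg5-/- AT2-BLM 3. Without the libraries with islet transcripts, Atg5-/- AT2-PBS is again 1 sample assumed to vary like the other groups. In that fit *Ddit3* (−0.55) and the 7 rises were not called, and *Eif2ak2* had a value of 0.14. With all libraries *Eif2ak2* was called lower (−0.61), a call kept in only 6 of 22 other settings.

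**Figure D3:**
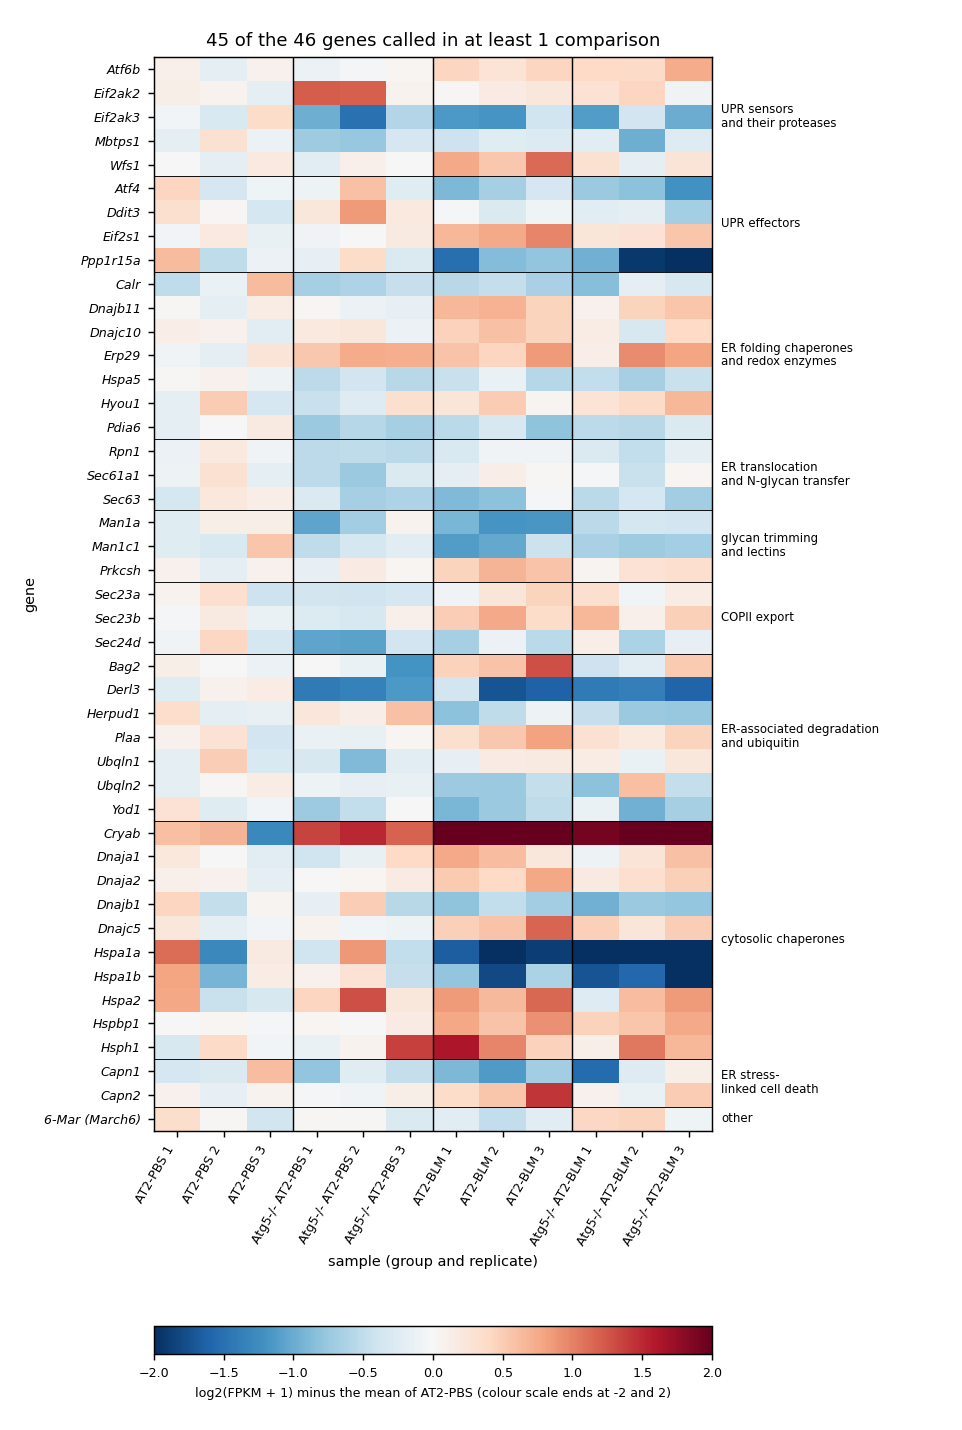
Level of 45 of the 46 pathway genes called in at least 1 of the 4 comparisons (rows, ordered by role list) in each of the 12 samples (columns), as log2(FPKM + 1) minus the mean of AT2-PBS, with colours ending at −2 and 2. *Cryab* is above the AT2-PBS mean in all 9 other samples, *Hspa1a* and *Ppp1r15a* are below it in all 6 BLM samples, and *Derl3* is below it in all 9 other samples.

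Whether BLM acted differently in the 2 genotypes was tested as the interaction, the BLM effect in Atg5-/- cells minus that in Atg5 f/f cells. By this test 9 of 143 genes were called, 6 higher and 3 lower, where 20.2% of all genes were called, 5.02% higher and 15.2% lower. None of the 9 passed the adjustment (7.89% of all genes did), 10 had an unadjusted p below 0.05 in limma, and the median was 0.06 for the pathway and −0.09 for all genes. *Man1a* fell by 1.09 with BLM in Atg5 f/f cells and had a value of 0.13 in Atg5-/- cells (interaction 1.22, SE 0.35, limma adjusted p = 0.0556). *Pdia6* followed the same course, with −0.56 and 0.21 (interaction 0.77, SE 0.22, limma adjusted p = 0.0557). For *Cryab* the BLM effect was 2.56 and 0.84 (interaction −1.72, SE 0.57, limma adjusted p = 0.0948). *Eif2ak3*, *Derl3*, *Sec24d* and *Rad23b*, a ubiquitin shuttle, were the other positive differences, and *Erp29* and *Wfs1* the other negative ones. The interaction shares AT2-PBS and Atg5-/- AT2-PBS with the comparisons above, so genes that differed between these enter it. The count was 5 without Atg5-/- AT2-PBS 2, 15 without Atg5-/- AT2-PBS 3, 14 without Atg5-/- AT2-BLM 2, 5 without the 3 libraries with islet transcripts (1 Atg5-/- AT2-PBS sample left) and 25 after quantile normalization.

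The BLM effects of the 2 genotypes rest on separate samples. Called in both were 7 of the 143 genes (4.9%), all 7 in the same direction, against 825 of all 10675 genes (7.73%), 569 of them in the same direction. *Atf4*, *Dnajb1*, *Hspa1a*, *Hspa1b* and *Ppp1r15a* fell, and *Hspbp1* and *Sec23b* rose. In Atg5 f/f cells the calls of *Atf4*, *Hspa1b* and *Ppp1r15a* were lost without AT2-PBS 1. That of *Sec23b* was lost there under quantile, median-ratio and *Cdh1* scaling. In Atg5-/- cells the calls of *Hspbp1* and *Sec23b* were lost under median-ratio and *Cdh1* scaling. A further 25 were called in Atg5 f/f cells alone and 8 in Atg5-/- cells alone, which does not show that the effects differed there. Across the 143 genes, which are not independent replicates, Pearson's r between the effects was 0.57 and Spearman's rho 0.43, against 0.07 and 0.23 across all 10675 genes.

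**Figure D4:**
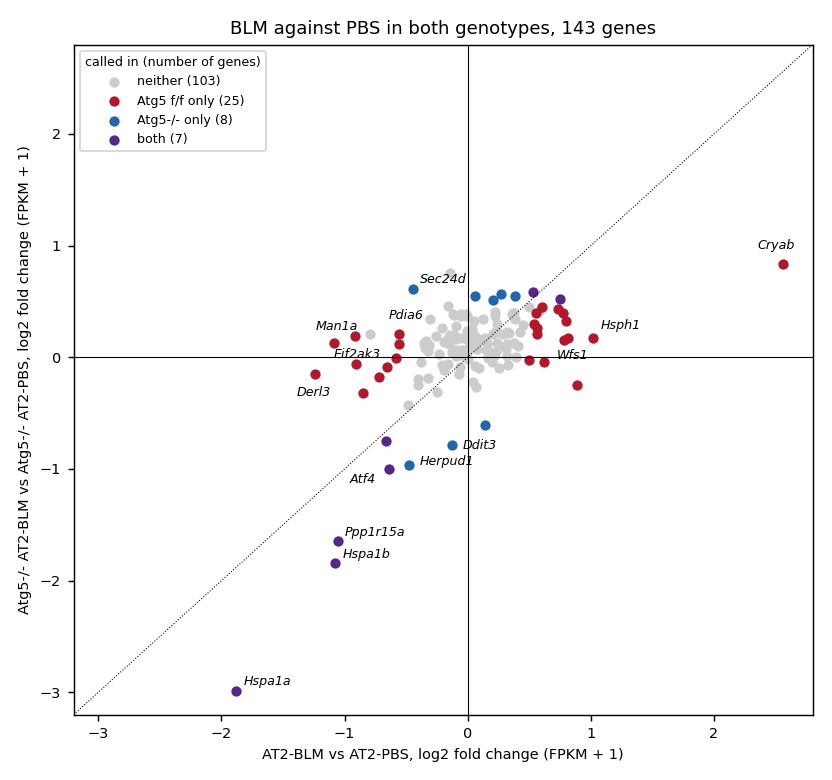
Log2 fold change (FPKM + 1) of BLM against PBS in Atg5 f/f cells (horizontal axis) and in Atg5-/- cells (vertical axis); each point is 1 of 143 pathway genes, coloured by the genotype in which it was called, and the dotted line marks equal effects. *Hspa1a*, *Hspa1b*, *Ppp1r15a* and *Atf4* lie low on both axes, and *Cryab* lies at 2.56 and 0.84.

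The 9 genes whose promoter held an ERSE had mostly negative values in both comparisons with AT2-PBS. All 9 had negative values in AT2-BLM vs AT2-PBS, where *Calr*, *Derl3* and *Pdia6* were called lower and the median was −0.38. Of all 10675 genes 3863 had negative values there and 7.77% were called lower. Under the other scalings 6 or 7 of the 9 were called lower, with medians from −0.61 to −0.55. Of the 10675 to 10851 genes tested under these scalings, 1306 to 1398 were called lower. In Atg5-/- AT2-PBS vs AT2-PBS 8 were negative, *Calr*, *Derl3*, *Hspa5* and *Pdia6* were called lower and the median was −0.44, against −0.05 with 5 negative and 1 called after scaling to *Cdh1*. Of all 10675 genes in this comparison 5102 were negative and 5.16% were called lower without that scaling. These 2 comparisons share AT2-PBS. In the comparisons without AT2-PBS no ERSE gene was called. The share of all genes called was 5.16% in Atg5-/- AT2-BLM vs AT2-BLM and 18.4% in Atg5-/- AT2-BLM vs Atg5-/- AT2-PBS. In the same order the medians of the ERSE genes were 0.05 and 0.06, the latter −0.34 with scaling to *Cdh1*. *Hspa5* was at 285, 252 and 294 FPKM in Atg5-/- AT2-BLM, below every AT2-PBS sample and overlapping both other groups.

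Known targets of these pathways outside the KEGG set were also counted. Of 13 tested *Atf4* and Chop targets, 4 rose and 1 fell with BLM in Atg5 f/f cells, where 20.6% of all genes rose and 7.77% fell, and *Psat1* and *Phgdh*, enzymes of serine synthesis, rose most. *Phgdh* measured 4.21, 2.17 and 2.19 FPKM in AT2-PBS, 6.49, 8.82 and 9.80 in AT2-BLM, 15.3, 22.2 and 16.9 in Atg5-/- AT2-PBS and 10.1, 2.63 and 3.61 in Atg5-/- AT2-BLM. It rose with BLM in Atg5 f/f cells, fell with BLM in Atg5-/- cells and had the largest interaction of the list (−3.03, SE 0.51, limma adjusted p = 0.00463). *Phgdh* was highest in Atg5-/- AT2-PBS, the group with raised markers of other cells, and their part was not tested. *Psat1* rose by 1.4 with BLM in Atg5 f/f cells (SE 0.31, limma adjusted p = 0.0116) while *Atf4* itself fell. *Sesn2* (1.12) and *Trib3* (0.79), stress-induced regulators, were the other rises. *Atf3*, a stress factor that is also an immediate early gene, fell by 3.32 in Atg5-/- cells (SE 0.77, limma adjusted p = 0.018). In Atg5 f/f cells *Atf3* fell by 1.76 (SE 0.77, limma adjusted p = 0.128), but the ranges overlapped. There it measured 575, 62.0 and 125 FPKM in AT2-PBS and 32.0, 98.8 and 34.8 in AT2-BLM.

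Among 20 tested *Atf6* and *Xbp1* targets, 1 rose and 3 fell with BLM in Atg5 f/f cells, 2 fell with loss of Atg5, none was called between the BLM groups and 1 fell with BLM in Atg5-/- cells. In the same order 28.4%, 19.3%, 5.16% and 18.4% of all genes were called, a larger share than of this list in each comparison. Called lower were 7.77%, 5.16%, 3.12% and 10.7% of all genes. In both comparisons with AT2-PBS this was a smaller share than of the list. *Tmem50b*, a small ER membrane protein, measured 274, 305 and 304 FPKM in AT2-PBS, 131, 129.7 and 175 in Atg5-/- AT2-PBS, 106, 133 and 140.1 in AT2-BLM and 122, 149 and 215 in Atg5-/- AT2-BLM. AT2-PBS stood above every other sample. The log2 fold change was −1.22 with BLM in Atg5 f/f cells (SE 0.21, limma adjusted p = 0.00333) and −1.03 with loss of Atg5 (SE 0.21, limma adjusted p = 0.00490), and these share AT2-PBS. Its interaction was 1.35 (SE 0.29, limma adjusted p = 0.0157).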

How the data were processed

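RNA-seq was carried out on sorted AT2 cells, 12 samples in 4 groups taken from the labels. The authors deposited FPKM values (fragments scaled by transcript length and library size) for 21878 genes, made with Cufflinks on mm9. Their processing notes list Trimmomatic 0.36, HISAT2, Cufflinks 2.2.1 and HTSeq 0.9.1, while the methods name STAR and state DESeq normalization of counts, which the files do not show. FPKM carries no read total. Steps between low values gave relative depths from 0.995 to 1.155, resting on few genes in all but 1 sample, so depth was treated as unknown.

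Pathway membership came from the KEGG annotation in the same table. By role, 157 of the 159 genes fell into 9 lists written by hand. Genes with at least 1 FPKM in at least 3 samples entered limma 3.58.1 (R 4.3.3; lmFit, eBayes with trend) on log2(FPKM + 1), in 1 fit of all 12 samples with 4 group means, checked on simulated data. A gene was called at p under 0.05 before adjustment with at least a 1.4-fold difference, and Benjamini-Hochberg adjustment ran over all 10675 genes. The members and lists were chosen with earlier results of these data known. Named genes are the sensors and effectors, a written list of genes of the other roles, and per comparison up to 5 called genes each way with separate ranges (3 for the interaction). Genes listed beside a count for completeness, and *Rpn1*, *Dnaja1*, *Dnaja2*, *Dnajc5*, *Hspa2*, *Dnajb1*, *Dnajc10*, *Bag2* and *Rad23b*, were chosen after their values were seen. The values of 2 pathway genes are not reported here, though counts include them. An exact permutation test of 3 against 3 samples cannot give a p below 0.1 and was not used. Promoter sequences came from RefSeq (GRCm38.p6) and gene positions from NCBIM37.

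Alternatives were a pseudocount of 0.1, no filter, scaling to *Cdh1* (the epithelial cadherin), to median ratios or by quantiles, the compared groups alone, a replicate block, no mean-variance trend, a Y-linked transcript covariate, leaving out each sample, the adjusted p and a fold change of 2. Leaving out the 3 libraries with islet transcripts, the sum of *Hspa1a* and *Hspa1b*, and the immediate early genes were added after seeing the data. Y-linked transcripts were present in 5 of 12 libraries. Plots were drawn with matplotlib 3.10.9.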

Additional observations from a re-analysis of the deposited data

Results flagged for a closer look

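The BLM effect differed between genotypes by the interaction test of limma, with p under 0.05 before adjustment and at least a 1.4-fold difference, for 9 pathway genes. None had a Benjamini-Hochberg adjusted p under 0.05 over the 10675 genes tested, and the adjusted p given with each value is from limma. Each value is the log2 BLM effect in Atg5-/- cells minus that in Atg5 f/f cells, from 3 samples per group.

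The Atg5-/- effect was the more positive for 6 genes. *Man1a* had an interaction of 1.22 (SE 0.35, adjusted p = 0.0556 by limma), from −1.09 in Atg5 f/f cells to 0.13 in Atg5-/- cells. For *Eif2ak3* it was 1.10 (SE 0.43, adjusted p = 0.158 by limma), from −0.91 to 0.19. *Derl3* had 1.09 (SE 0.42, adjusted p = 0.160 by limma), from −1.24 to −0.15. *Sec24d* had 1.06 (SE 0.38, adjusted p = 0.130 by limma), from −0.44 to 0.61. *Pdia6* had 0.77 (SE 0.22, adjusted p = 0.0557 by limma), from −0.56 to 0.21. *Rad23b* had 0.49 (SE 0.21, adjusted p = 0.213 by limma), from −0.11 to 0.38.

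The Atg5-/- effect was the more negative for 3 genes. *Cryab* had an interaction of −1.72 (SE 0.57, adjusted p = 0.0948 by limma), from 2.56 to 0.84. *Erp29* had −0.66 (SE 0.30, adjusted p = 0.237 by limma), from 0.62 to −0.04. *Wfs1* had −0.64 (SE 0.29, adjusted p = 0.234 by limma), from 0.81 to 0.17. The *Cryab* and *Man1a* values were called in all 21 other settings run for them.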

How the results depend on the processing

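The 32 calls of AT2-BLM vs AT2-PBS became 14 with the adjusted p and 7 with a fold change of 2, and ranged from 21 to 34 when each sample was left out. The 14 calls of Atg5-/- AT2-PBS vs AT2-PBS became 35 with quantile normalization, 9 without the 3 libraries with islet transcripts, 4 with the adjusted p and 4 with a fold change of 2, and ranged from 8 to 23. The 6 calls of Atg5-/- AT2-BLM vs AT2-BLM became 3 with scaling to *Cdh1*, 0 with the adjusted p and 1 with a fold change of 2, and ranged from 2 to 11. The 15 calls of Atg5-/- AT2-BLM vs Atg5-/- AT2-PBS became 9 with median-ratio scaling, 7 without the libraries with islet transcripts, 7 with the adjusted p and 3 with a fold change of 2, and ranged from 9 to 24. The 9 interaction calls became 25 with quantile normalization, 5 without the libraries with islet transcripts, 0 with the adjusted p and 5 with a fold change of 2, and ranged from 5 to 15. Without the libraries with islet transcripts Atg5-/- AT2-PBS holds 1 sample, assumed to vary like the other groups. The cause of these moves was not tested, beyond the stricter thresholds and fewer samples by which some were made. Of 58 called values of named genes, recomputed 1268 times, 1020 kept their call, 247 lost it with the same sign and 1 reversed, *Eif2ak2* in Atg5-/- AT2-BLM vs Atg5-/- AT2-PBS, from −0.61 to 0.14 without the libraries with islet transcripts.

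Samples with the same replicate number correlated between −0.30 and 0.23 in their deviations from the group means. In no pair of groups did all 3 exceed 0.1. No correlation between samples of different numbers was computed for comparison, so this cannot decide whether the numbers pair the samples. With a replicate block the counts were 30, 14, 4, 11 and 10 in the order above, none moved by more than 1.5 times. Limits are the 3 samples per group, unknown depth, FPKM that sums over isoforms, and markers of other cells that move with the groups.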

Other observations

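The 159 pathway genes together made up 1.74% to 1.84% of all FPKM in AT2-PBS, 1.38% to 1.73% in AT2-BLM, 1.26% to 1.53% in Atg5-/- AT2-PBS and 1.55% to 1.71% in Atg5-/- AT2-BLM. The share in Atg5-/- AT2-PBS lay below every AT2-PBS sample, in a group where the airway list alone reached 84299 FPKM. The lowest AT2-BLM share was that of AT2-BLM 2, the library in which *Sftpc* was listed at 112570 FPKM.

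*Psat1* measured 2.87, 3.35 and 2.60 FPKM in AT2-PBS and 5.53, 8.24 and 17.4 in AT2-BLM, while in Atg5-/- cells it measured 3.69, 4.50 and 2.66 without and 3.87, 4.63 and 4.52 with BLM. Between the BLM groups 3 of 13 tested *Atf4* and Chop targets were called lower in Atg5-/- cells and none higher. Of all genes 3.12% were called lower. The 3 were *Psat1* (−0.96), *Asns* (−0.66) and *Sesn2* (−0.66), of amino acid and stress metabolism, none of them with a limma adjusted p under 0.05.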
